A study of Mus musculus with 6 samples.

Results

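The genes described here are 10 genes of testis macrophages: Csf1r, Adgre1, Cd68, Lyz2, Cd14, Mrc1, Cd163, Itgam, Ccr2 and H2-Aa. They were compared between neonatal and adult mouse testis. An mRNA probe was taken as a member when its RefSeq accession belongs to one of these genes, and Adgre1 is also known as Emr1. Of the 10 genes, 9 had a probe, with 10 probes among the 22464 mRNA probes of the array. The expression of Cd68 was not analysed here. The named mRNA probes cover 19053 genes in all.

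The study profiled long noncoding RNAs (lncRNAs) and mRNAs on 1-colour arrays. The groups were whole testes of male C57/BL6 mice at 6 days after birth (neonatal) and at 8 weeks (adult), with no treatment named. Each age had 3 biological replicates with 1 array each, and each replicate was a group of mice pooled, with fewer mice in all at 8 weeks than at 6 days. Arrays 1 and 2 of both ages share a scan date, and array 3 of both ages shares another. The labels name no slide, and arrays of the same scan date are taken below as 1 slide, which is an assumption.

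Macrophages live in the interstitium of the testis, close to Leydig cells and blood vessels, and on the surface of the seminiferous tubules. They arise from fetal precursors and from blood monocytes. Their growth and survival depend on CSF1 acting through its receptor, and in adult testis they are known to differ in their surface proteins, CSF1R and class II antigens of the major histocompatibility complex (MHC) among them.

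Signals are given on a log2 scale after each array was divided by its own 75th percentile, so a value of 0 stands for that percentile and a difference of 1 for a 2-fold difference. A floor at -7.22 stood for the lowest signals. The 75th percentile of the signal was 2947, 2503 and 1385 on neonatal arrays 1 to 3, and 1856, 1425 and 747 on adult arrays 1 to 3. The scanner software called between 65.9% and 69.8% of spots well above background, meaning that the signal clearly exceeded the local background. It marked 10.7%, 9.84% and 30.7% of neonatal spots, and 8.32%, 6.11% and 25.4% of adult spots, as outliers of uneven or deviating signal. On array 3 of each age 83.2% (neonatal) and 76.0% (adult) of spots at or above the 75th percentile were outliers. Tests left such spots out, and this took replicate 3 out of the test for several bright macrophage genes. Per-array values below include every spot and say which ones of the members were outliers.

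Over the genes as a whole the ages differed widely. Of 12970 genes tested with limma, 5839 (45.0%) were lower and 3905 (30.1%) were higher in adult testis, with p adjusted by Benjamini-Hochberg and called at 0.05 or below. The median log2 fold change, adult over neonatal, was -0.37. Among the 7 macrophage members that could be tested, 2 were lower (Csf1r and Lyz2), 2 were higher (Cd163 and H2-Aa) and 3 did not pass (Cd14, Itgam and Ccr2), with a median of -0.46. With outlier spots kept, 9 members were tested: 2 were lower (Adgre1 and Lyz2), 2 were higher (Cd163 and H2-Aa) and 5 did not pass, against 48.6% lower and 30.3% higher among 16313 genes. The member median was then -0.43, and that of all genes -0.47. No member reached a 5-fold change (0 of 7 by limma, also 0 at an unadjusted p of at most 0.05 and 0 by the methods' t-test), whereas 26.5% of all genes did, and 28.1% with outlier spots kept. In whole testis, fewer macrophages and less of an RNA per macrophage cannot be told apart.

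**Figure D1:**
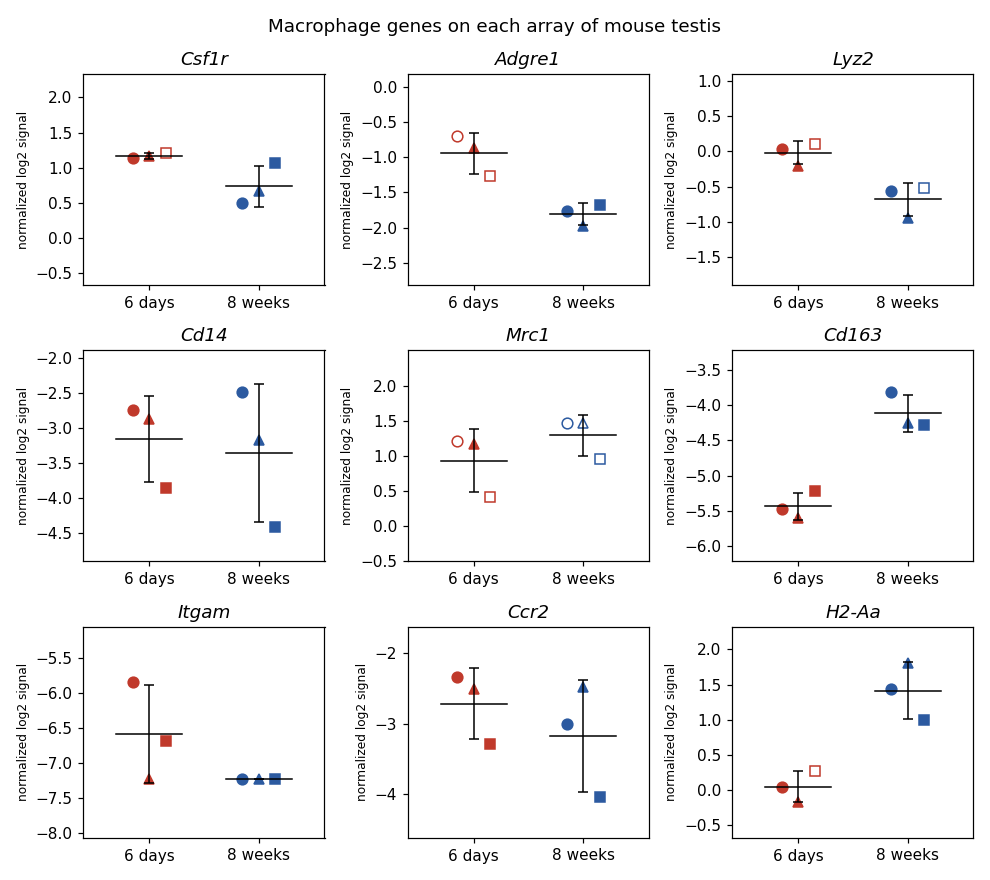
Normalized log2 signal (vertical axes, each spanning its own range) of 9 macrophage genes on the 3 arrays of 6-day-old testis (red) and the 3 of 8-week-old testis (blue). Circles, triangles and squares are replicates 1, 2 and 3, open symbols are outlier spots, lines are means and bars are SDs. H2-Aa and Cd163 lie higher at 8 weeks on every array, Adgre1, Lyz2 and Csf1r lie lower, and the ages overlap for Cd14, Mrc1, Itgam and Ccr2. The share of all genes without overlap was not computed, so a lack of overlap is not read as particular to the members.

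Csf1r encodes the receptor for CSF1 and IL-34, on which most tissue macrophages depend. Its signal was 1.14, 1.16 and 1.21 on the neonatal arrays, the last an outlier spot, and 0.50, 0.66 and 1.06 on the adult arrays. The ages did not overlap, and adult array 3 came closest to the neonatal values. Csf1r fell by 0.57 on the log2 scale (SE 0.14, 95% interval -1.02 to -0.12, adjusted p = 0.0379) in a test that holds pairs 1 and 2. By pair the difference was -0.64 and -0.50 on the first slide and -0.15 on the other. With the outlier spot kept it was -0.43 (adjusted p = 0.0531), and without the replicate block -0.41 (adjusted p = 0.146). Fits without a block that left out adult array 1, adult array 2 or neonatal array 3 gave -0.29, -0.37 and -0.41 (adjusted p 0.345, 0.329 and 0.136). The fall of Csf1r is thus a small one that rests on pairs 1 and 2, and 45.6% of all genes had a lower log2 fold change.

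Csf1, the growth factor that Csf1r binds, fell more than its receptor. Its counted probe read -1.21, -1.15 and -0.78 on the neonatal arrays and -2.98, -2.88 and -2.51 on the adult arrays. It was lower in 3 of 3 pairs, and over pairs 1 and 2 its log2 fold change was -1.75 (adjusted p = 0.00237), while another probe gave -1.84. Il34, the other ligand, was below the background call with both probes on all 6 arrays, as were Csf2, Csf3 and Csf3r. Csf2rb, the shared beta chain of the receptors for GM-CSF and related cytokines, fell by 0.76 over pairs 1 and 2 (adjusted p = 0.0444), but this call was lost in each of the 5 fits that left out an array or a pair (adjusted p 0.0602 to 0.117), although the value was no smaller there. With outlier spots left out the 3 tested genes of the colony stimulating factor list, Csf1r among them, fell (median -0.76), beside 45.0% of all genes. With them kept 3 of 4 fell and Csf1r did not pass, beside 48.6% lower among all genes.

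Adgre1 encodes F4/80, a surface protein widely used to recognise mouse macrophages. It read -0.70, -0.87 and -1.27 on neonatal arrays 1 to 3, of which 1 and 3 were outlier spots, and -1.76, -1.99 and -1.67 on the adult arrays. Every adult value was below every neonatal value. With outlier spots left out only 1 pair remained, too few for the test. With them kept, Adgre1 fell by 0.86 (SE 0.19, 95% interval -1.38 to -0.34, adjusted p = 0.0137). The difference by pair was -1.07, -1.11 and -0.41, again smallest on the slide of pair 3, and the call was lost without pair 1 (-0.76, adjusted p = 0.0922) and without pair 2 (-0.74, adjusted p = 0.0832).

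Lyz2 encodes lysozyme M, a bactericidal enzyme of macrophages and neutrophils. It read 0.04, -0.20 and 0.11 in neonatal and -0.56, -0.95 and -0.53 in adult testis, and both array 3 spots were outliers. The ages did not overlap. Lyz2 fell by 0.68 (SE 0.14, 95% interval -1.13 to -0.22, adjusted p = 0.0250) over pairs 1 and 2, and by 0.66 (adjusted p = 0.00585) with all spots. The fall was of like size on both slides, with differences of -0.60, -0.75 and -0.63 by pair. Without the replicate block the adjusted p of Lyz2 was 0.0605, and without a block it was 0.0571 when neonatal array 3 was left out and 0.0553 when adult array 3 was.

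The normalization bears on these modest falls. The median over all genes moved from -0.37 to -0.70 under quantile normalization, -0.62 with a shift to the median, -0.79 in the authors' log2 values and 0.06 after normexp background correction. Csf1r and Lyz2 kept a negative fold change under each of these. Relative to the median of all genes, however, Csf1r stood at -0.20 in the analysis used here, 0.11 under quantile normalization, 0.10 in the authors' values, 0.04 with outlier spots kept and -0.63 after normexp, so its place against the other genes changed sign. Lyz2 stood at -0.31, -0.02, -0.14, -0.20 and -0.71 in the same order. Adgre1 stood at -0.40 with outlier spots kept and at -0.34 in the authors' values. Cd163 and H2-Aa stayed above the median gene throughout, from 0.95 to 1.84 for Cd163 and from 1.64 to 2.37 for H2-Aa.

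Lyz2 belongs to a list of lysosomal genes, most of them also active outside macrophages. Of 4 that could be tested, 3 fell and 1 rose (median -1.34), beside 45.0% and 30.1% of all genes. With outlier spots kept 10 of 12 fell and 1 rose (median -1.82), beside 48.6% and 30.3%. Ctsl, the protease cathepsin L, fell by 3.15 (adjusted p = 0.000324, and -1.40 after normexp), and Lamp2, a protein of the lysosomal membrane, fell by 2.01 over pairs 1 and 2 (adjusted p = 0.00363). Lamp1, another membrane protein of lysosomes, rose by 0.83 over pairs 1 and 2 (adjusted p = 0.0136), but the call was lost under quantile normalization (0.10, adjusted p = 0.597) and, with no smaller value, without neonatal arrays 1 and 3 (1.03, adjusted p = 0.174). The fall of Lyz2 was smaller than those of Ctsl and Lamp2.

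Of 18 other genes of resident macrophages and leukocytes that were tested, 7 fell, 4 rose and 7 did not pass, near the shares of all genes (45.0% lower, 30.1% higher). Their median was -0.31, beside -0.37 over all genes. Pf4, a chemokine of platelets that macrophages also make, fell by 1.50 (adjusted p = 0.000529), and the call was lost without adult array 1 or 2 (adjusted p 0.0629 and 0.0576, no block). Ms4a7, a membrane protein of resident macrophages, fell by 1.30 (adjusted p = 0.00116, and -0.58 after normexp), a call that was lost without neonatal array 1 or 3 or adult array 1 or 2 (adjusted p 0.0532 to 0.0615, no block). Fcrls, an Fc receptor-like gene of microglia, was below the background call on each adult array, and the bound put neonatal testis 4.77-fold higher or more (adjusted p = 0.000389), a call and a size that were lost after normexp (-0.37, adjusted p = 0.145).

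The 4 that rose were Aif1, Vsig4, Siglec1 and Cd53. Vsig4, a complement receptor of resident macrophages, read -6.31, -5.92 and -4.92 in neonatal and -3.24, -3.43 and -2.69 in adult testis. It rose by 2.60 (SE 0.20, adjusted p = 0.000803), and by 1.70 after normexp. Siglec1, the sialoadhesin of resident macrophages, rose by 1.14 (adjusted p = 0.00105), although without the block its adjusted p was 0.109, and the call was lost in 5 of 9 fits that left out an array or a pair. Cd53, a tetraspanin of leukocytes, rose by 1.00 (adjusted p = 0.00398, and 0.0575 without pair 1). Aif1, which encodes IBA1, changed far more than any member, at -1.30, -1.34 and -1.29 in neonatal and 5.45, 5.39 and 5.39 in adult testis, with a log2 fold change of 6.74 over pairs 1 and 2 (adjusted p = 0.000204). Spermatid genes rose on the same arrays: all 5 tested of 6 rose, and the mean over the 6 with outlier spots kept was -4.07, -4.26 and -3.89 on the neonatal and 6.95, 7.13 and 7.39 on the adult arrays. Whether germ cells contribute to the Aif1 signal was not tested.

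Cd163, the receptor that clears complexes of haemoglobin and haptoglobin, rose. It read -5.47, -5.60 and -5.22 on the neonatal arrays and -3.82, -4.25 and -4.28 on the adult arrays, well above background on all 6 and with no outlier spot. The lowest adult value lay above the highest neonatal value. The log2 fold change was 1.32 (SE 0.17, 95% interval 0.84 to 1.80, adjusted p = 0.00330), a 2.49-fold rise, with 1.65, 1.35 and 0.95 by pair. Cd163 was higher in 3 of 3 pairs and passed in each of the 9 fits that left out an array or a pair. The methods' t-test gave an adjusted p of 0.0534.

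Mrc1, the mannose receptor CD206 of interstitial and other tissue macrophages, was measured almost only by outlier spots. It read 1.22, 1.16 and 0.41 in neonatal and 1.46, 1.47 and 0.96 in adult testis, and 5 of these 6 spots were outliers, all but neonatal array 2. The ages overlapped, since adult array 3 lay below neonatal arrays 1 and 2. Mrc1 could not be tested with outlier spots left out. With them kept the difference was 0.37 (95% interval 0.02 to 0.71, adjusted p = 0.0538), positive in 3 of 3 pairs, and it was 0.10 (adjusted p = 0.526) in the authors' values.

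Cd163 was the only gene called higher among 13 tested of the list of uptake receptors and their partners, of which 8 fell and 4 did not pass (median -1.63), beside 45.0% lower and 30.1% higher among all genes. Colec12, a scavenger receptor of endothelium and stroma, fell by 2.89 over pairs 1 and 2 (adjusted p = 0.000857). Hmox1, the haem oxygenase that degrades haem taken up with haemoglobin, went opposite to Cd163. Hmox1 read 3.01, 3.28 and 3.71 in neonatal and 0.47, 0.51 and 1.39 in adult testis, and it fell by 2.66 (SE 0.15, adjusted p = 0.00121) over pairs 1 and 2. Of the genes of red cells, Hbb-bt, a haemoglobin beta chain, fell by 2.93 over pairs 1 and 2 (adjusted p = 0.00892), whereas Alas2, the first enzyme of haem synthesis in red cells, rose by 1.99 over pairs 1 and 2 (adjusted p = 0.00556).

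Ccr2 encodes the chemokine receptor with which monocytes leave the bone marrow and enter tissues. It read -2.34, -2.51 and -3.29 in neonatal and -3.00, -2.48 and -4.04 in adult testis. The ages overlapped, and array 3 was the lowest at both. The difference was -0.46 (95% interval -1.01 to 0.09, adjusted p = 0.102), and by pair -0.66, 0.03 and -0.75. It passed at -0.70 without pair 2 (adjusted p = 0.0484), at -0.69 under quantile normalization (adjusted p = 0.0477), at -0.71 with a shift to the median (adjusted p = 0.0354) and at -0.72 in the authors' values (adjusted p = 0.0449). Relative to the median of all genes Ccr2 stood at 0.02, -0.10 and 0.07 in these 3 scalings, close to the median gene.

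Chemokines of monocytes fell and rose, as did genes in general. Ccl2, the main ligand of Ccr2, read -3.48, -3.66 and -5.41 in neonatal and -5.22, -4.82 and -5.18 in adult testis, a difference of -0.89 (95% interval -2.05 to 0.27) that did not pass (adjusted p = 0.124). Neonatal array 3 stood apart from the other neonatal arrays for Ccl2, and without pair 3 the difference was -1.45 (adjusted p = 0.0268). Ccl12, a further ligand of Ccr2, fell by 1.81 (adjusted p = 0.000895, and -0.87 after normexp). Ccl7, also a ligand of Ccr2, fell by 1.96 (adjusted p = 0.0104), and the call was lost after normexp (-0.50, adjusted p = 0.199), without pair 1 (-1.51, adjusted p = 0.0623) and pair 2 (-1.95, adjusted p = 0.0935).

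Ccl5 and Ccl8 went the other way. Ccl5, which draws T cells and monocytes, read -3.73, -4.13 and -4.40 in neonatal and -1.03, -1.58 and -2.08 in adult testis and rose by 2.52 (SE 0.12, adjusted p = 0.000278). Ccl8 rose by 2.44 (SE 0.20, adjusted p = 0.000958). Ccl4 rose by 0.84 (adjusted p = 0.0165), a call lost in 7 of 9 fits that left out an array or a pair, and Ccl24 rose by 0.58 (adjusted p = 0.0415), a call lost in all 9. Without the block their adjusted p was 0.0567 and 0.410, and under quantile normalization 0.0567 and 0.409. The Ccl24 value lay between 0.10 (without neonatal array 3) and 1.01 (without adult array 3) in those 9 fits. Under quantile normalization it was 0.21. Ccr1, another chemokine receptor of monocytes, was below the background call on each adult array, with a bound of 3.96-fold or more in favour of neonatal testis (adjusted p = 0.000678), but after normexp the difference was -0.37 and did not pass (adjusted p = 0.0941). Over the list of 15 chemokines and receptors, Ccr2 among them, 14 were tested, 7 fell, 4 rose and 3 did not pass (median -0.77), beside 45.0% lower and 30.1% higher among all genes (median -0.37).

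Itgam encodes CD11b, the integrin alpha chain of monocytes, neutrophils and many macrophages. Of its 2 probes, one was well above background on neonatal arrays 1 and 3 only, at -5.85 and -6.68, and was at the floor on neonatal array 2 and on each adult array. The other was below the background call throughout. The difference of the former did not pass (95% interval -1.46 to 0.18, adjusted p = 0.119), and with the adult arrays at the floor its size was not measured. Its sign was negative here and positive after normexp (0.44, adjusted p = 0.122), and without neonatal array 2 it passed as lower (adjusted p = 0.0467, no block). Itgam thus lay at the limit of what the arrays measured. Itgb2, the beta chain that pairs with it, read -5.86, -6.12 and -6.13 in neonatal and -6.52, -6.35 and -5.82 in adult testis, with a difference of -0.19 (95% interval -0.79 to 0.41, adjusted p = 0.452) that turned to 0.38 (adjusted p = 0.0192) after normexp.

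The neonatal arrays 1 and 3 on which Itgam was detected also carried a transcript of the epididymis, the duct next to the testis. Crisp1, a secreted protein of the epididymis, read 2.43, -4.34 and 2.51 on the neonatal arrays and -4.23, -4.37 and -5.30 on the adult arrays, a difference of -3.35 over pairs 1 and 2 (95% interval -9.31 to 2.61, adjusted p = 0.204). Over the 5 of 6 epididymal genes that were tested the mean was -2.68, -4.57 and -2.65 on the neonatal arrays and -5.31, -5.18 and -5.23 on the adult arrays, while Spink10 was below the background call on all 6. Defb42, a beta-defensin, was below that call on each adult array, and neonatal testis held 53.1-fold more or above over pairs 1 and 2 (adjusted p = 0.00113), whereas for Rnase10 adult testis held 4.19-fold more or above (adjusted p = 0.00124). These bounds hold in the scaling used, and after normexp the log2 fold changes were -3.77 and 1.18. With neonatal arrays 1 and 3 left out Defb42 differed by -5.57 (outlier spots kept, no block). Defb42 was thus also higher on neonatal array 2 than on the adult arrays, whereas Crisp1, at -4.34 there, lay within the adult values. Where the Defb42 signal came from was not tested. The part of the epididymis in the macrophage values was not tested.

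A comparison without neonatal arrays 1 and 3, chosen after the data were seen, leaves 1 neonatal array that is assumed to vary like the adult ones. Outlier spots were kept and there was no block. Cd163 then differed by 1.49, H2-Aa by 1.58, Adgre1 by -0.94, Lyz2 by -0.48 and Csf1r by -0.42. Calls of members are not counted here, since 1 neonatal array has no spread of its own.

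Among the surface receptors of the Itgam list, 11 genes were tested, 4 fell, 1 rose and 6 did not pass (median -0.59), beside 45.0% lower and 30.1% higher among all genes. Fcgr3, a low-affinity receptor for immunoglobulin G, was the gene that rose. It read 0.58, 0.39 and 0.62 in neonatal and 2.32, 2.24 and 2.61 in adult testis, a rise of 1.86 (SE 0.11, adjusted p = 0.000415). The 4 that fell were Sirpa, Tyrobp, Trem2 and Fcer1g. Sirpa, which receives the signal of CD47 that restrains uptake of cells, fell by 2.22 over pairs 1 and 2 (adjusted p = 0.00174). Tyrobp, the adaptor DAP12, fell by 1.30 (adjusted p = 0.00137), and Trem2, a receptor that signals through it, fell by 0.87 over pairs 1 and 2 (adjusted p = 0.0163). The Trem2 call was lost, and its value was smaller, in 3 fits with no block. These were without neonatal array 3 (-0.62, adjusted p = 0.141), adult array 1 (-0.42, adjusted p = 0.302) or adult array 2 (-0.56, adjusted p = 0.292). Fcer1g, the gamma chain that Fcgr3 signals through, fell by 0.59 over pairs 1 and 2 (adjusted p = 0.0321), opposite to Fcgr3, and its call was lost without adult array 1 or 2 (adjusted p 0.0674 and 0.0881, no block).

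Cd14, the co-receptor that hands bacterial lipopolysaccharide to TLR4, showed no passing difference. It read -2.74, -2.87 and -3.86 in neonatal and -2.49, -3.17 and -4.42 in adult testis. The difference was -0.20 (95% interval -0.73 to 0.33, adjusted p = 0.383), positive in pair 1 at 0.25 and negative in pairs 2 and 3 at -0.30 and -0.56. After normexp it was 0.00025. Array 3 was the lowest at both ages, so Cd14 differed more between slides than between ages.

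Of the partners of Cd14, Tlr4 fell in the scaling used here but not in every other. Tlr4 read -5.29, -5.07 and -5.73 in neonatal and -6.30, -6.62 and -7.22 in adult testis, where 1 of 3 arrays was well above background, and it fell by 1.35 (SE 0.15, adjusted p = 0.00217). After normexp the difference of Tlr4 was -0.03 (adjusted p = 0.827), so the fall was lost, and with neonatal arrays 1 and 3 left out it was -1.64 (adjusted p = 0.0797), where only the call was lost. Ly96, which encodes MD-2 and completes the receptor, fell by 1.27 (SE 0.24, adjusted p = 0.0180) over pairs 1 and 2. Irak1, a kinase of the same signalling route, fell by 1.93 over pairs 1 and 2 (adjusted p = 0.00469). Of 9 tested genes for lipopolysaccharide recognition, 6 fell and 3 did not pass, Cd14 among the latter (median -1.27, beside -0.37 and 45.0% lower over all genes).

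H2-Aa encodes the alpha chain of the class II molecule I-A, with which macrophages and dendritic cells present peptides to T cells. It read 0.04, -0.17 and 0.27 on the neonatal arrays, the last an outlier spot, and 1.44, 1.80 and 1.00 on the adult arrays. Each adult value lay above each neonatal value. H2-Aa rose by 1.68 (SE 0.21, 95% interval 1.01 to 2.36, adjusted p = 0.00705) over pairs 1 and 2, a 3.22-fold rise, and by 1.36 (adjusted p = 0.00963) with all spots. By pair the difference was 1.40, 1.97 and 0.72, smallest on the slide of pair 3. H2-Aa passed in the 5 fits without an array or a pair that could be run, while with no filter its adjusted p was 0.0835 and the methods' t-test gave 0.149.

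Genes that work with H2-Aa rose or did not pass in the scaling used here, and Ciita depended on the scaling. H2-Ab1, the beta chain that pairs with it, read -2.74, -2.75 and -2.86 in neonatal and -1.10, -2.10 and -1.79 in adult testis. It rose by 1.15 over pairs 1 and 2 (SE 0.31, adjusted p = 0.0464). The H2-Ab1 call was lost in 11 of 22 alternatives, over which the value lay between 0.80 and 1.30. It was lost without pair 3 (adjusted p = 0.0927) and without adult array 3 (adjusted p = 0.0800, no block). It was also lost under quantile normalization (adjusted p = 0.0715), with a shift to the median (adjusted p = 0.0599), with no floor (adjusted p = 0.0599) and with no filter (adjusted p = 0.244). H2-DMb1, a chain of the H2-DM molecule that loads peptides onto class II, read -3.43, -3.41 and -3.04 in neonatal and -0.99, -1.50 and -0.98 in adult testis and rose by 2.14 (SE 0.15, adjusted p = 0.000614). Cd74, the invariant chain, had 2 probes with too few pairs for the test. With outlier spots kept they disagreed, at 1.09 (adjusted p = 0.00663) and 0.18 (adjusted p = 0.733), and the former lost its call without pair 1 (adjusted p = 0.0585) and without the block (adjusted p = 0.313). H2-Eb1, a beta chain of the I-E molecule, was below the background call on all 6 arrays. In all, 3 of 6 tested class II genes rose and 3 did not pass, beside 30.1% higher among all genes. Of the 3 that rose, H2-Ab1 lost its call in 11 of 22 alternatives, as given above. The median was 0.71, and no other macrophage-related list had a median above 0. Ciita, the coactivator of class II transcription, was among those that did not pass, at -0.35 (95% interval -0.71 to 0.01, adjusted p = 0.0724), and its sign turned to 0.49 after normexp (adjusted p = 0.00626). Ciita passed as lower under quantile normalization (-0.82, adjusted p = 0.00948), with a shift to the median (-0.61, adjusted p = 0.0185) and in the authors' values (-0.61, adjusted p = 0.0257), so its direction cannot be told.

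**Figure D2:**
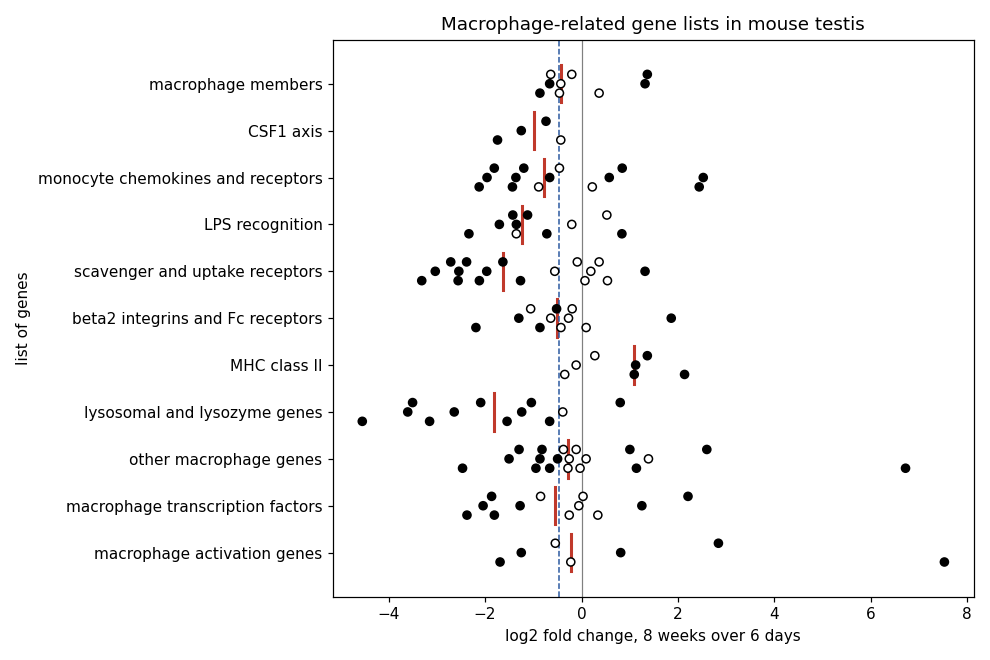
Log2 fold change, 8 weeks over 6 days (horizontal axis), of each gene in 11 macrophage-related lists (vertical axis), with outlier spots kept. Filled circles have an adjusted p of at most 0.05, red bars are list medians, and the dashed line is the median of all genes at -0.47. The members lie between -0.86 and 1.36, and the class II list alone has its median above 0, at 1.09, which is the value of Cd74.

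Spi1 encodes PU.1, the transcription factor that macrophage genes such as Csf1r require. It read 0.35, 0.36 and 0.69 in neonatal and 1.78, 1.45 and 1.93 in adult testis and rose by 1.26 (SE 0.17, adjusted p = 0.00802) over pairs 1 and 2, opposite to Csf1r. Its call was lost with no filter (adjusted p = 0.0646) and in the methods' t-test (adjusted p = 0.125). Of 7 tested myeloid regulators, Spi1 rose, Irf5 and Runx1 fell and 4 did not pass (median -0.06), beside 45.0% lower and 30.1% higher among all genes (median -0.37). Irf5, a regulator of inflammatory genes, fell by 1.97 over pairs 1 and 2 (adjusted p = 0.00344). Runx1, a factor of blood cell formation, fell by 1.27 (adjusted p = 0.00267), and after normexp its fold change turned to 0.04. With outlier spots kept 12 were tested, of which 5 fell and 2 rose (median -0.55), beside 48.6% and 30.3% of all genes (median -0.47).

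Genes of macrophage activation did not move one way. Of 7 tested, 3 rose (Nos2, Il1b and Chil3), 2 fell, Cxcl10 among them, and 2 did not pass, with a median of -0.22, beside 45.0% lower and 30.1% higher among all genes (median -0.37). Nos2, the inducible nitric oxide synthase, rose by 0.81 (adjusted p = 0.0246), but passed in only 2 of 9 fits that left out an array or a pair, and not under quantile normalization (0.50, adjusted p = 0.0713). Chil3, a chitinase-like protein of macrophages, read -6.99, -7.07 and -6.66 in neonatal and 0.31, 0.44 and 1.09 in adult testis, a log2 fold change of 7.52 with an SE of 0.13 (adjusted p = 8.80e-05). Its neonatal values lie near the floor, and after normexp the value was 5.47. Il1b rose by 2.84 (adjusted p = 0.00497, and 0.0782 without pair 1), and the value was 1.35 after normexp. Cxcl10 fell by 1.69 (adjusted p = 0.0279), a call lost in 8 of 9 such fits, without the block (adjusted p = 0.127) and after normexp (-0.51, adjusted p = 0.167). Il6, Ptgs2, Retnla and Il10 were below the background call on all 6 arrays.

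The macrophage values stood beside large shifts in other cells of the testis, with 45.0% of all genes lower. All 5 tested genes of stromal fibroblasts fell (median -4.11), with Col3a1 at -4.61, and all 8 of endothelial cells fell (median -1.64), with Pecam1 at -3.27. Of Sertoli cell genes 3 of 3 tested fell (median -2.34, Fshr -3.05), of peritubular myoid genes 4 of 5 (median -1.91, Myh11 -2.31) and of spermatogonial genes 3 of 4 (median -2.18, Sall4 -4.43). Leydig cell genes were mixed, with 2 higher, 1 lower and 1 that did not pass (median 0.49). Among them Star differed by 1.34, a call lost without pair 1 or 3 (adjusted p 0.160 and 0.0894), and Hsd3b1 by -1.04. Spermatid genes had a median of 12.47, with Prm2 at 14.32. The mean over the 9 macrophage members, with outlier spots kept, was -1.63, -1.90 and -2.03 on the neonatal arrays and -1.72, -1.79 and -2.13 on the adult arrays. By age it was -1.86 and -1.88, beside -1.46 and -1.45 over all genes, so the mean of the members, like that of all genes, hardly differed, although members went both ways. The values of Col3a1, Pecam1, Fshr, Myh11, Sall4 and Hsd3b1 hold pairs 1 and 2. How far these shifts enter the macrophage values was not tested.

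Promoter sequence was held for 7 members (Mrc1, Cd163, Itgam, Ccr2, Lyz2, Cd68 and H2-Aa) in the RefSeq table on GRCm38.p6. In the 250 bases before the start, letters known from macrophage and class II promoters were searched on both strands. For Cd163 and Ccr2 this window overlaps the annotated gene, and for Ccr2 it lies wholly inside it. GAGGAA, the core read by PU.1, was in 3 of 7 (Cd68, Itgam and Mrc1), against 23.3% of 32851 promoters. TTNNGNAA, a form of the C/EBP site, was in 6 of 7 against 36.8%, and TGANTCA, the AP-1 site, was in Cd68 alone against 6.75%. CTGATTGG, the Y box of class II genes, was in H2-Aa alone among the members, against 3.83% of all promoters. GAGGAAGT, the longer PU.1 form, which contains GAGGAA, was in 0 of 7 against 2.44%. These are matches of letters and not sites of binding. Among 7 class II genes with a promoter in the table, H2-Aa, H2-Eb1 and H2-Oa held CTGATTGG and H2-DMb1, which rose most, did not.

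The class II promoters are shown because H2-Aa and H2-DMb1 rose while H2-Eb1 was below the background call. All lie on chromosome 17, at chr17:34287824-34288073 on the minus strand for H2-Aa, chr17:34305617-34305866 on the plus strand for H2-Eb1 and chr17:34152941-34153190 on the plus strand for H2-DMb1. Each is written in the direction of the gene, with CTGATTGG and the PU.1 core, on either strand, in capitals.
H2-Aa: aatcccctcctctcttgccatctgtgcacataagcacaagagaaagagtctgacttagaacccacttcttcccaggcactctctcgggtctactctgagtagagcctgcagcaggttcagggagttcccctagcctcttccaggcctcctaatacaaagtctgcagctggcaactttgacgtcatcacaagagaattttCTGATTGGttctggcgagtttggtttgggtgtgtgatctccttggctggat
H2-Eb1: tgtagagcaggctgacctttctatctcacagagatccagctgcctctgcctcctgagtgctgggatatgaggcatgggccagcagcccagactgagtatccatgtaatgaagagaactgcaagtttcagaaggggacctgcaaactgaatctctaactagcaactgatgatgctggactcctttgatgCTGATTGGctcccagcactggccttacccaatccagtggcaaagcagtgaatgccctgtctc
H2-DMb1: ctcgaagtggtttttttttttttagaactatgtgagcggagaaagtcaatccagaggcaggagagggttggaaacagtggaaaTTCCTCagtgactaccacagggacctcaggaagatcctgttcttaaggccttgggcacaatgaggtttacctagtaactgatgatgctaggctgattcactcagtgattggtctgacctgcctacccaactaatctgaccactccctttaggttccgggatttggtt

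Itgam at chr7:128062390-128062639 and Mrc1 at chr2:14229164-14229413, both on the plus strand, are the members with a probe that hold the PU.1 core before the start. They are shown beside Vsig4 at chrX:96293439-96293688 on the minus strand, which rose and also holds it. Aif1 and Cd53, which rose, and Pf4, Fcrls and Trem2, which fell, hold it too. Over the other macrophage genes 12 of 15 with a promoter in the table held it, against 23.3% of all promoters. A gene with several promoters was counted if any of them held it, whereas the share over all is per promoter.
Itgam: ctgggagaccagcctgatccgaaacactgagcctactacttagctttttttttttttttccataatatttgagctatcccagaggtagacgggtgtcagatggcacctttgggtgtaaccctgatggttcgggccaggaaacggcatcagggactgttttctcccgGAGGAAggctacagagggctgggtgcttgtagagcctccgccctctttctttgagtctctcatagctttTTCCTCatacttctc
Mrc1: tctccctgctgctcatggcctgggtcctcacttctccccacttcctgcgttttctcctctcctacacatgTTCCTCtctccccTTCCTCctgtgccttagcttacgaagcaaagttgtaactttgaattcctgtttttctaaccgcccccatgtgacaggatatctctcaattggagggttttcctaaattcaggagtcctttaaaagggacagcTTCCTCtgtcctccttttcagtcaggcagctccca
Vsig4: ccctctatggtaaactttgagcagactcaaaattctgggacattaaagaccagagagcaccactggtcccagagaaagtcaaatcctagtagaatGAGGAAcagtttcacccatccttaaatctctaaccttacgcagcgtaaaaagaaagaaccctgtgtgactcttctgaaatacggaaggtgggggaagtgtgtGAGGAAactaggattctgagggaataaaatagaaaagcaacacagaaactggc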

How the data were processed

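RNA was reverse transcribed with an oligo dT primer, labelled with Cy3 and read with Agilent Feature Extraction 10.5.1.1, as the submitters' processing notes and labels state. The scanner files deposited by the authors hold each spot's intensity, background-subtracted and detrended but not normalized between arrays. The authors' deposited table of log2 values was made with GeneSpring. Allowing 1 shift per array, 100% of those log2 values match the log2 of the intensity with a floor at 5, within 0.001, so their scale is log2 and their direction that of the signal. The column medians were 1.28, 1.30 and 1.27 (neonatal) and 1.20, 1.27 and 1.22 (adult).

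Here the processed intensity was averaged per probe, divided by the array's 75th percentile (control probes excluded), floored at a common value of -7.22 and taken to log2. Outlier spots were left out of tests. A probe was fitted if at least 1 array was well above background and 2 complete pairs remained, with limma 3.58.1 in R 4.3.3 (lmFit and eBayes, prior degrees of freedom 2.07). The replicate number was a block, since the authors' own test was paired. Benjamini-Hochberg adjustment ran over all 24517 tested lncRNA and mRNA probes. A gene was counted by its tested mRNA probe with the highest mean over the 6 arrays. A table on GRCm38.p6 named 21905 of 22464 mRNA probes (97.5%) by accession. Tables and figures were made with pandas 2.3.3, numpy 2.4.6 and matplotlib 3.10.9 in Python 3.11.15. The fit was tested on simulated data, where it missed many of the 2-fold changes. A gene that did not pass may thus still differ by a small amount.

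For a probe with no array of an age above the background call, a lower bound is given: the brighter age's mean against the dimmer age's mean of, per array, the higher of the lowest signal well above background and the probe's own. The number of arrays limits the precision of every value.

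The labels name no slide, so arrays that share a scan date were taken as 1 slide. To check the pairing, deviations from the age means were correlated between ages over 7333 probes: r was 0.497, 0.429 and 0.777 for equal numbers, 0.470 and 0.508 for different numbers on the same slide, and between -0.690 and -0.556 across slides. Among arrays 1 and 2, which share a scan date, equal numbers were no closer than different numbers. These values thus show a grouping by scan date and no further pairing by number.

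Members and lists were chosen with earlier results of these data known. Genes followed through the alternatives, not every one of them named, are all members and their direct partners, and from each list the 2 largest rises and falls among changed genes well above background on all 6 arrays (1 each for other cell types) and the largest bound in each direction. Siglec1, Cd53, Il1b, Chil3, Cxcl10, Ccl4, Ccl24, Trem2, Fcer1g, Mpo, S100a8, Cpa3, Flt3 and Crisp1 were added after their values were seen. Msr1 was also singled out after its values were seen, but it was not followed through the alternatives. Alternatives were other floors, scalings and background correction (normexp with offset 50, on the median spot intensity), the authors' log2 values, outlier spots kept, other filters, no block, a block by slide, an intensity trend, the methods' t-test, the mean of a gene's probes, a 2-fold threshold and leaving out pairs or arrays.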

Additional observations from a re-analysis of the deposited data

How the results depend on the processing

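Over 75 genes followed through the analysis, 1471 of 1743 values under the alternatives kept their direction and their side of the threshold, 253 no longer passed, 11 newly passed and 8 turned sign. The sign turned after normexp for Cd14 (0.00025), Itgam (0.44), Itgb2 (0.38), Ciita (0.49) and Runx1 (0.0436). It turned for Cd14 without neonatal array 1 (0.0059) and without adult array 3 (0.33), where without adult array 1 it was -0.64. For Itgb2 it turned without pair 1 (0.0370), where without pair 3 it was -0.44. Apart from Runx1 these genes had not passed. Of 72 genes, 24 no longer passed with no filter, 35 with the adjusted t-test of the methods, and 26 of 75 with neonatal arrays 1 and 3 left out.

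The number of members lower in adult testis was 2 of 7 in the analysis used here (5839 of 12970 over all genes). It was 1 of 7 with no floor (5828 of 12970), with a floor applied before scaling (5720 of 12970) and with no filter (4601 of 15714). It was 3 of 7 under quantile normalization (6594 of 12970) and with a shift to the median (6549 of 12970). In the authors' log2 values it was 4 of 9 (8452 of 15766). With the methods' t-test it was 0 of 7 before adjustment (4294 of 12959) and after (2787 of 12959). Without the replicate block it was 0 of 7 (5360 of 12988), and in the authors' values Csf1r, Adgre1, Lyz2 and Ccr2 made up the 4. The number higher, also 2 of 7 (3905 of 12970 over all genes), was 1 of 7 with no filter (3316 of 15714). With the methods' t-test it was 1 of 7 before adjustment (3188 of 12959) and 0 of 7 after (2315 of 12959). A fit without neonatal arrays 1 and 3 leaves 1 neonatal array, and its differences for Cd163, Adgre1, H2-Aa, Lyz2 and Csf1r are given above. Leaving out each pair or array gave 0 to 2 lower and 1 to 2 higher, with 4 to 7 members tested. At a 2-fold threshold 2 members changed, Cd163 and H2-Aa.

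Over all genes the methods' t-test after adjustment gave 2787 lower and 2315 higher. Genes changed at least 5-fold numbered 3435 of 12970, against 2217 of 12970 after normexp and 5218 of 15766 in the authors' values. At 2-fold they numbered 7732 of 12970. Leaving out each pair or array gave 2175 to 5484 lower, 1654 to 3706 higher and 1574 to 3444 changed at least 5-fold. These fits tested fewer genes, from 7059 to 12913, so their counts are not of the same genes. Of all calls 59.9% were lower, and 48.2% after normexp. Without the replicate block 5360 genes were lower and 3514 higher, and 11 of those 75 genes no longer passed, Csf1r and Lyz2 among them. The cause of these shifts was not tested. Probes near the floor, such as that of Itgam, are limited by signal over background.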

Other observations

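Other leukocytes showed no common direction between the ages. Of 7 tested T and NK cell genes, 4 fell and 3 rose (median -0.41), beside 45.0% lower and 30.1% higher among all genes (median -0.37). Cd2, an adhesion receptor of T cells, rose by 1.30 (adjusted p = 0.00123), and Cd3e, a chain of the T cell receptor complex, fell by 0.47 (adjusted p = 0.0299). The Cd3e call was lost in 7 of 9 fits that left out an array or a pair. Of 5 tested B cell genes, 1 rose, 1 fell (Cd79b, 2.38-fold or more lower in adult testis, adjusted p = 0.0178) and 3 did not pass (median -0.03), and the Cd79b call was lost in 7 of 9 such fits and after normexp (-0.19, adjusted p = 0.514). Of 3 tested dendritic cell genes Flt3, a receptor of their precursors, rose by 2.82 (adjusted p = 0.000207) and 2 did not pass (median 0.22). Of 4 tested erythroid genes 2 rose, 1 fell and 1 did not pass (median 0.66), and with outlier spots kept 2 of 5 rose and 2 fell. These counts too stand beside 45.0% lower and 30.1% higher among all genes, or 48.6% and 30.3% with outlier spots kept.

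Granulocyte genes went both ways. S100a9, a calcium-binding protein of neutrophils and monocytes, read -1.57, -3.27 and -2.15 in neonatal testis and was at the floor on each adult array, with a bound of 22.8-fold or more in favour of neonatal testis (adjusted p = 0.000716, and -2.23 on the log2 scale after normexp), and 5.01-fold by the bound for its partner S100a8 (adjusted p = 0.00284), whose call was lost after normexp (-0.73, adjusted p = 0.0921). Neonatal array 2 was the lowest of the 3 neonatal arrays for both. Mpo, myeloperoxidase of neutrophil precursors, went the other way, at -7.22, -7.17 and -5.37 in neonatal and -0.21, -0.69 and -0.37 in adult testis (adjusted p = 0.000635). With neonatal array 1 at the floor the size of this rise was not measured well, at 6.17 here and 4.46 after normexp, while Elane and Ltf were below the background call on all 6 arrays. Of 5 tested neutrophil genes 3 fell, 1 rose and 1 did not pass (median -0.67), beside 45.0% lower and 30.1% higher among all genes. The mast cell protease Cma1 read -1.33, -1.78 and -0.77 in neonatal and -6.03, -5.46 and -5.23 in adult testis, a log2 fold change of -4.28 (adjusted p = 0.000359, and -2.17 after normexp). Of 6 tested mast cell genes 2 fell, Cma1 and Cpa3, and 4 did not pass (median -0.22), where 45.0% of all genes were lower. The Cpa3 call (-2.39, adjusted p = 0.0298) was lost in 7 of 9 fits that left out an array or a pair and after normexp (adjusted p = 0.0715). Of 5 tested epididymal genes 1 fell, 1 rose and 3 did not pass (median -0.36), beside the same shares of 45.0% and 30.1%.

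The scavenger receptor Msr1 had 2 probes that disagreed. The counted probe read -3.15, -3.73 and -2.65 in neonatal and -4.62, -4.53 and -5.27 in adult testis and fell by 1.63 (adjusted p = 0.0195). The other was below the background call on each neonatal array and read -1.14, -1.12 and -1.54 in adult testis, with 2 of 3 adult spots marked as outliers. With these kept the bound was 58.2-fold or more in favour of adult testis. Msr1 was singled out after its values were seen and was not followed through the alternatives.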
